A study of Caenorhabditis elegans with 2 samples.

Results

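The flp and nlp genes encode the precursors of most neuropeptides of the nematode Caenorhabditis elegans. The genes examined were all protein-coding genes of the Ensembl annotation named flp- or nlp- followed by a number, 102 of 19973 protein-coding genes on the nuclear chromosomes, of which 31 were flp and 71 were nlp genes. They were compared with the sites at which DMD-6, a transcription factor of the DM-domain family, was found by ChIP-seq, an assay that sequences the DNA recovered with a protein. The worms were of strain RJP5356, which carries the allele rp168, an insertion of GFP, AID, TEV and 3xFLAG sequences made by CRISPR at dmd-6 itself on chromosome IV. AID is the auxin-inducible degron. Eggs were freed by bleaching, the hatched L1 larvae were held without food so that they grew in step, and whole animals were collected as L4 larvae at 48 hours, their sex was not recorded, and chromatin was recovered with an antibody that the sample description gives as anti-GFP and the antibody label as dmd-6. There were 2 biological replicates of this 1 group and no second condition, so no test between conditions was possible. Whole animals do not tell in which cells a site was occupied.

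Neuropeptide precursors are cut at pairs of basic residues by proprotein convertases, trimmed by a carboxypeptidase, often amidated at the C terminus, and released from dense core vesicles to act mostly on G-protein-coupled receptors. The flp genes encode peptides ending in RFamide, and the nlp genes encode the other, mixed families. Most members are expressed in small sets of neurons. Some nlp genes are also known outside neurons: a glycine-rich group in the epidermis is induced by fungal infection and wounding, and nlp-40 is known to be released from the intestine to drive the defecation rhythm.

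A gene was said to have a peak when a summit, the point of highest signal within a peak, fell between 1000 bp before and 200 bp after one of its annotated start sites, taken along the gene. The main list, which the authors called from the 2 replicates jointly at an IDR of 0.01, had 7338 peaks, that of replicate 1 had 6533 and that of replicate 2 had 4653. The read depth is unknown, so the sizes of the lists are the only measure of yield. The ranked lists, which are kept before the IDR threshold, had 25335 entries in replicate 1 and 29346 in replicate 2. Peak signal is the authors' value for a peak and can be compared within a list but not between lists. IDR, the irreproducible discovery rate, is low where the rank of a peak held between replicates or parts of the reads. Coordinates are 1-based on WBcel235, which the files call ce11.

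The sequences below surround 4 of the 6 summits in a member's window and 4 summits upstream of a member's window, and are shown to give the DNA that these peaks cover. Those of the nlp-40 and nlp-62 window peaks are not shown here. Each holds the summit and 50 bp on either side of it, read 5′ to 3′ on the strand of the named gene from the RefSeq copy of WBcel235, and capitals mark searched words or their reverse complements. TGATAA is the word known from factors of the GATA family. CACGTG is an E-box, and a repeat of GA, written GAGAGAG, was the third. The last word, ACAATGT, the core bound by the DM-domain protein Doublesex of Drosophila, was in none of them. The first 4 are the window peaks, and the last 4, which the window rule did not assign to the named gene, had higher signals.

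nlp-24 window peak, chrV:11615970-11616070, plus strand: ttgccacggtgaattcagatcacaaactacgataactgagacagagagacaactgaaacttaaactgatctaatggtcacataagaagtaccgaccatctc
flp-23 window peak, chrIII:8650354-8650454, plus strand: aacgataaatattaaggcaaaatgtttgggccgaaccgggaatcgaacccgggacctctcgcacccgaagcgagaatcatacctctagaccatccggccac
nlp-31 and nlp-34 window peak, chrV:3979935-3980035, plus strand: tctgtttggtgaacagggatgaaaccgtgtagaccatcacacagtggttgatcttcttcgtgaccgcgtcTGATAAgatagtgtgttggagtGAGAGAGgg
nlp-29 window peak, chrV:3984364-3984464, plus strand: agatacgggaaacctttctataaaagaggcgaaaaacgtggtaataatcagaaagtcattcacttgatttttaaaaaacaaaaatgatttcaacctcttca
nlp-24 upstream peak, chrV:11614932-11615032, plus strand: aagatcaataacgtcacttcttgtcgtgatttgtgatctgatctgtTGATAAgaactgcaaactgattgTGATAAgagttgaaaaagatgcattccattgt
nlp-19 upstream peak, chrX:10957418-10957518, plus strand: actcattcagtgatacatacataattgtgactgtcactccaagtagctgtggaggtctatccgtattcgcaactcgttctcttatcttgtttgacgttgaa
flp-18 upstream peak, chrX:3020147-3020247, minus strand: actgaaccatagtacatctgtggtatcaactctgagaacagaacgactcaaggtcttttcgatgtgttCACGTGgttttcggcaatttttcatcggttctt
nlp-36 upstream peak, chrIII:9487621-9487721, plus strand: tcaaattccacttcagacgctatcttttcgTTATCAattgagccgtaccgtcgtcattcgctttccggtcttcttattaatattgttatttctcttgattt

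Peaks were sparse at these genes. A summit lay in the window of 7 of the 102 members, 6.86% (95% exact binomial interval 2.8 to 13.6%), against 19.1% of all protein-coding genes. Of the 31 flp genes 1 had a peak (3.23%), flp-23, and of the 71 nlp genes 6 did (8.45%): nlp-24, nlp-29, nlp-31, nlp-34, nlp-40 and nlp-62. The 7 genes rested on 6 peaks, because nlp-31 and nlp-34 share one between them. The intervals cover the counting of genes only, and no test of the list was made.

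All of the 6 peaks but the one at nlp-40 had signals below the median of the list. Their signals ran from 79.1 to 172.7 with a median of 105.6, beside a median of 143.9 over the 3801 peaks in a gene window and 140.9 over the main list. None was among the 1000 strongest peaks, which reached 3.17% of all protein-coding genes. Each was 344 bp wide, the median width of the list.

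The strongest was at nlp-40 (WBGene00022276, plus strand of chromosome I from 11495 to 16837), the precursor of the intestinal peptide that triggers the expulsion step of defecation. The peak, on chromosome I from 11159 to 11502, had its summit 164 bp upstream of the start in intergenic sequence and a signal of 172.7, rank 2854 of the main list. In replicate 1 the overlapping entry had a signal of 88.3 and a −log10 IDR of 2.92, and in replicate 2 a signal of 83.0 and a −log10 IDR of 3.95. Both replicates thus held the peak above the threshold of 2. nlp-40 had 2 further peaks. A strong one, with a signal of 436.5 (rank 486), lay past the end of the gene from 16878 to 17131, and a weak one with a signal of 69.2 lay in an intron, 329 bp downstream of another of its 3 start sites and so outside the window. The peak past the end was also in both replicates, with signals of 228.8 and 207.6, whereas the intronic one was above the threshold in replicate 1 alone.

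At nlp-24 (WBGene00003762, plus strand of chromosome V from 11616376 to 11616828), whose peptides have been described as opioid-like, 2 peaks lay upstream. The one within the window, on V from 11615848 to 11616191, had its summit 356 bp upstream of the start and a signal of 129.3, with 77.2 in replicate 1 and 49.7 in replicate 2. The second, from 11614880 to 11615120, was 1394 bp upstream and had the higher signal, 310.6, with 178.2 in replicate 1 and 128.8 in replicate 2. Both peaks passed the threshold in both replicates. The sequence of the second holds TGATAA at a pair of places, and that of the first holds none of the searched words. A search of the genome found no similar sequence elsewhere for the window peaks of nlp-24, nlp-40 and nlp-31.

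Of the 4 remaining window peaks, 2 belonged to a tight cluster of nlp genes. nlp-34, nlp-31, nlp-30, nlp-29, nlp-28 and nlp-27 lie within 10946 bp of chromosome V, from 3978825 to 3989770, and nlp-29 and nlp-31 encode antimicrobial peptides of the epidermis. The peak shared by nlp-31 and nlp-34, which are transcribed away from each other, ran from 3979813 to 3980156, with its summit 70 bp upstream of nlp-31 and 851 bp upstream of nlp-34. Its signal was 81.4, with 45.0 in replicate 1 and 30.4 in replicate 2. Neither replicate alone held it above the threshold, with −log10 IDR values of 1.72 and 1.51. The nlp-29 peak, from 3984242 to 3984585, had its summit 11 bp upstream of the start and a signal of 79.1, with 57.6 in replicate 1 and 25.9 in replicate 2. It passed the threshold in replicate 1 (−log10 IDR 2.37) and not in replicate 2 (0.83), and it was missing from the conservative list. Its sequence resembled that of other sites, the longest match being 317 bp at 77.9% identity from 3987743 to 3988043, at the start of nlp-28; no match reached 90% over 50 bp.

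**Figure D1:**
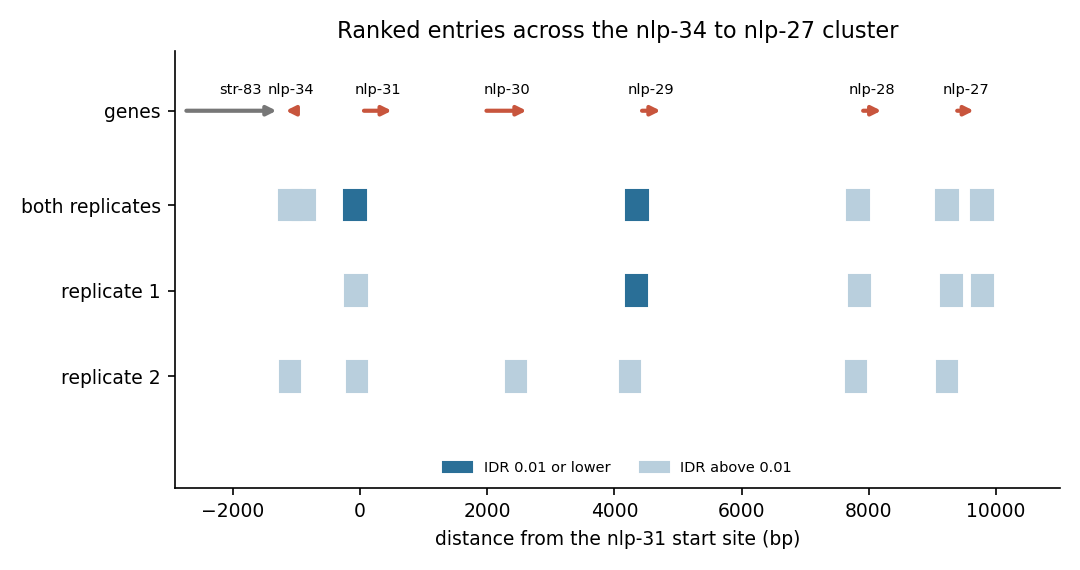
Entries of the ranked lists across the nlp-34 to nlp-27 cluster of chromosome V, by distance in bp from the start site of nlp-31. These lists are kept before the IDR threshold. Arrows are genes with their strand (str-83 is a neighbour). Boxes are entries of the list called on both replicates and of each replicate, dark where the IDR was 0.01 or lower. Dark boxes lie at nlp-31 and nlp-29 in the list called on both replicates, at nlp-29 in replicate 1, and nowhere in replicate 2.

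Weaker entries lay at the other genes of this cluster, as the map of the cluster shows. In the ranked list called on both replicates, nlp-28 had an entry with a −log10 IDR of 0.59 and nlp-27 one with 1.16, both under the threshold of 2. At nlp-30 an entry of replicate 2 with a signal of 16.6 lay inside the gene but outside its window. Of the 11 genes from nlp-24 to nlp-34, which include the cluster and lie on chromosomes III and V, 4 had a peak (36.4%, beside 19.1% of all protein-coding genes) and 9 had a ranked entry (81.8%, beside 40.6%). nlp-30 and nlp-32 had neither in their windows. The 4 genes rest on 3 peaks, the list is short, and no interval was computed for its shares. Taken singly, the thresholded list of replicate 1 had a peak at 2 of the 11, beside 18.2% of all protein-coding genes, and that of replicate 2 at 1, beside 13.0%. nlp-24 was the 1 gene whose main-list peak was covered to at least 50% by a peak of each replicate, beside 11.3%. Among the other 91 members 3 had a peak (3.3%) and 21 a ranked entry (23.1%).

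The last pair of window peaks sat at tRNA genes. The flp-23 peak (chromosome III from 8650232 to 8650575) had its summit 363 bp upstream of flp-23 (WBGene00017693, plus strand from 8650767 to 8652194), inside the tRNA gene WBGene00023002, which runs from 8650381 to 8650452. It had a signal of 95.1, with 52.0 in replicate 1 and 37.0 in replicate 2, and passed the threshold in replicate 1 (−log10 IDR 2.32) but not in replicate 2 (1.19). The nlp-62 peak (chromosome I from 5854695 to 5855038) had its summit in an intron of nlp-62 (WBGene00018005, minus strand from 5854199 to 5855040), 173 bp downstream of the start and 2 bp from the tRNA gene WBGene00023023, from 5854794 to 5854865. Its signal was 116.0, with 60.9 in replicate 1 and 55.2 in replicate 2, and both replicates passed the threshold.

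Both of these peaks hold sequence repeated elsewhere in the genome, with 32 other matches of at least 90% identity over 50 bp for flp-23 and 24 for nlp-62. The 2 peaks match each other over 95 bp at 84.2% identity. The sources used here do not say how reads that fit several places were treated, so both are uncertain. Outside the window, nlp-62 had a peak 1701 bp upstream (signal 104.5). flp-23 had peaks 1583 bp (74.4) and 3408 bp (97.2) downstream of its nearest start site, the latter in the window of F22B7.9. Each of these passed the threshold in 1 replicate only, and none had its summit within 200 bp of a tRNA gene. Of the main list 4.69% of summits lay within 200 bp of a tRNA gene, and of the peaks in a gene window 2.13%. Leaving such summits out, a choice made after seeing the data, left 5 of 102 members with a peak against 18.7% of all protein-coding genes. It also left 0 of 31 flp genes, for which the upper limit of the 95% exact binomial interval is 11.2%, and a count of 0 read as up to 3 genes allows 9.68%.

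**Figure D2:**
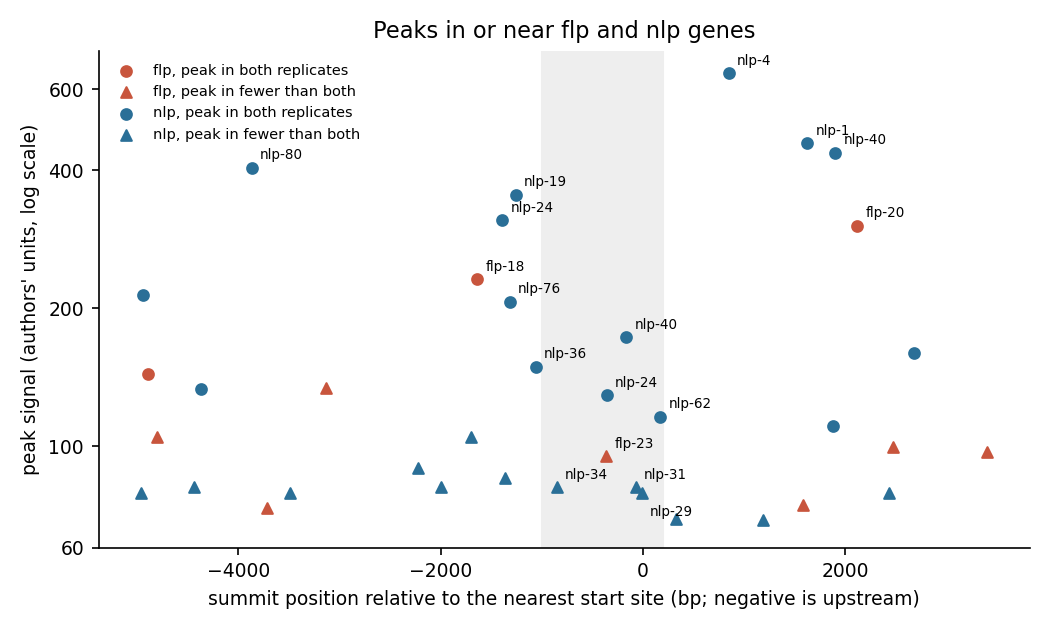
Signal of each main-list peak in a member, within 5000 bp upstream of it or within 2000 bp downstream, on a log scale, against the distance of its summit from the nearest start site in bp; circles were found above the threshold in both replicates and triangles in fewer, and the grey band is the window. The peaks in the band have signals of at most 172.7, and the highest, 651.0 at nlp-4, lies outside it.

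The replicates differed in which members they held. The thresholded list of replicate 1 alone placed a summit at flp-23, nlp-24, nlp-29 and nlp-40, 4 of 102 against 18.2% of all protein-coding genes, and that of replicate 2 alone at nlp-24, nlp-40 and nlp-62, 3 of 102 against 13.0%. The nlp-62 summit is 27 bp inside the downstream limit of the window, and in replicate 1 the overlapping peak had its summit outside. With only the main-list peaks covered to at least 50% by a peak of each replicate, 3 of 102 had a peak (nlp-24, nlp-40 and nlp-62) against 11.3%. The conservative list kept 6 of the 7, against 17.7%. nlp-24 and nlp-40 were in every one of these lists.

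The ranked lists also hold weaker entries, below the threshold. In the ranked list called on both replicates 30 members (29.4%) had an entry in the window, against 40.6% of all protein-coding genes. Of these, 23 had entries under the threshold, with −log10 IDR from 0.13 to 1.87 and a median of 0.41, and 72 members had no entry at all. The nearest to the threshold were nlp-68 (1.87), nlp-15 (1.46), nlp-25 (1.18) and nlp-27 (1.16), followed by nlp-26 (0.87), nlp-67 (0.69), nlp-28 (0.59) and flp-11 (0.55), the last a gene of the sleep-promoting neuron RIS. nlp-33 and nlp-76 had 0.48 each. flp-2, whose peptides are also known to come from the intestine, had an entry at 0.13, the lowest value, which it shared with 6 others.

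**Figure D3:**
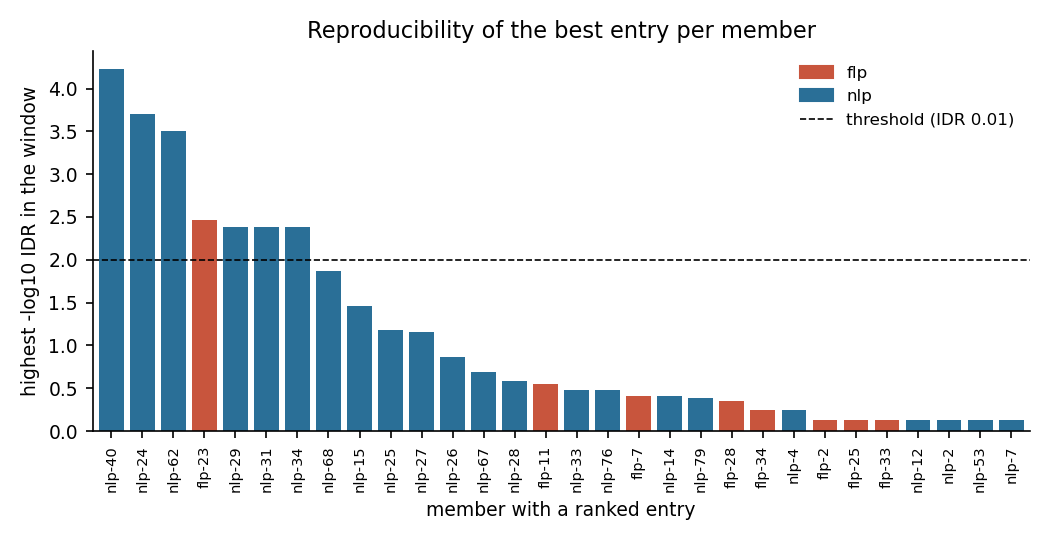
Highest −log10 IDR of an entry in the window, in the ranked list called on both replicates, for each of the 30 members with one; the dashed line is the threshold of 2. The values fall from 4.23 at nlp-40 to 0.13, and 7 members pass the line.

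Taken singly, the ranked list of replicate 1 reached 17 members (16.7%) against 37.8% of all protein-coding genes, and that of replicate 2 reached 35 (34.3%) against 39.5%. The flp genes with an entry were 1 of 31 in replicate 1 and 8 of 31 in replicate 2. For the nlp genes the counts were 16 of 71 (22.5%) in replicate 1 and 27 of 71 (38.0%) in replicate 2. The latter share was near the 39.5% of all protein-coding genes. Both replicates had an entry at 15 members (14.7%), and at 29.0% of all protein-coding genes. Neither these lists nor the ranked list on both replicates held any entry in the window of 59 members. The main-list peak 4801 bp upstream of flp-19 (signal 104.8) had no overlapping entry in the ranked list of replicate 1. A missing entry thus means only that none was listed.

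In narrower and wider windows the members stayed below the background. With 500 bp upstream and 100 bp downstream 5 of 102 had a peak (4.9%) against 15.0%, with 2000 bp upstream 13 (12.7%) against 24.1%, and with 5000 bp upstream 20 (19.6%) against 35.0%. The median distance from a member's start site to the nearest summit was 10120 bp, beside 6195 bp over all protein-coding genes. The sequence upstream of members up to the next protein-coding gene was longer, with a median of 2840 bp beside 937 bp, and for the flp genes 5185 bp. A summit lay somewhere in that stretch at 18 members (17.6%) and at 21.5% of all protein-coding genes. Per Mb of such sequence there were 45.7 summits at the members and 136.0 over all genes. Stretches of like length were not compared, so whether the lower density goes with the longer stretches of the members was not tested.

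**Figure D4:**
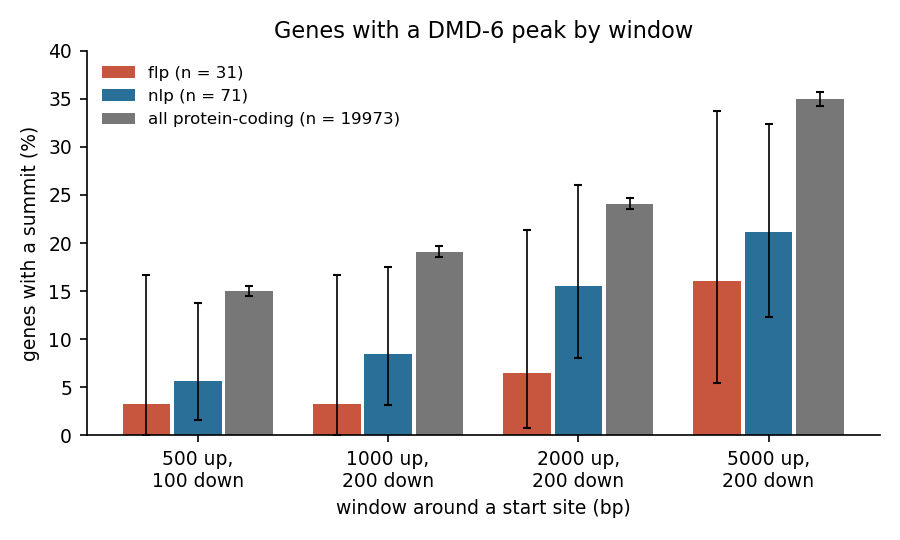
Share of genes with a main-list summit in each of 4 windows, for the 31 flp genes, the 71 nlp genes and all 19973 protein-coding genes; error bars are 95% exact binomial intervals. From the narrowest to the widest window the flp share runs from 3.23 to 16.1%, the nlp share from 5.63 to 21.1% and that of all genes from 15.0 to 35.0%.

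Of the 95 members without a window peak, 18 (18.9%) had one in the gene, within 5000 bp upstream or within 2000 bp downstream, as did 29.5% of all protein-coding genes without a window peak. Members were shorter genes, with a median length of 1018 bp beside 2027 bp, so less sequence was searched in the gene itself. Several of the strongest lay in the window or an intron of another gene. The strongest, on chromosome I from 10517088 to 10517356 with a signal of 651.0 (rank 130), lay downstream of nlp-4 and in the window of F59C6.18. At nlp-1, which acts in olfactory adaptation, a peak past the end of the gene (X from 3729043 to 3729342, signal 458.5) was in the window of aex-4, a SNARE gene that acts in the intestine. The peak 3869 bp upstream of nlp-80 (signal 405.1) was in the window of T04C12.8, and the one downstream of flp-20 (signal 302.4) in that of oga-1. The peak 1259 bp upstream of nlp-19 (X from 10957321 to 10957566, signal 353.7), whose sequence holds none of the searched words, lay in an intron of pbo-4, which encodes a proton exchanger of the posterior intestine. All 5 were above the threshold in both replicates.

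Other such peaks had no protein-coding gene in whose window they fell. One lay 1642 bp upstream of flp-18 (X from 3020086 to 3020248), whose peptides act in locomotion and feeding state. Its signal was 231.1, with 125.1 in replicate 1 and 100.1 in replicate 2, and its sequence holds CACGTG. The nlp-36 peak (III from 9487499 to 9487842) was 1060 bp upstream of the start, 60 bp short of the window, with signals of 149.1, 74.3 in replicate 1 and 70.2 in replicate 2. Its sequence holds TTATCA, the reverse complement of TGATAA. The nlp-76 peak, 1316 bp upstream with a signal of 206.7, lay in an intron of nhr-17 and 9 bp from a tRNA gene. nlp-36, nlp-19 and nlp-76 were the members whose nearest summit fell just outside the window, by 60, 259 and 316 bp, and nlp-62, nlp-34 and nlp-29 lay just inside, by 27, 149 and 211 bp.

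The members with a peak were on chromosomes I, III and V. On X, which has the most members, 0 of 32 had a peak, against 24.9% of all protein-coding genes there. The upper limit of the 95% exact binomial interval is 10.9%, and a count of 0 read as up to 3 genes allows 9.38%. On V 4 of 21 had one, against 17.1%, and on I 2 of 9, against 17.4%. Chromosome III had 1 of 12, against 22.3%. Neither the 13 members on II (18.3% of all genes there) nor the 15 on IV (17.3%) had one. The upper limits of the 95% exact binomial intervals, 24.7% on II and 21.8% on IV, lie above those shares of all genes. The 4 genes on V include the pair that share a peak, and both the III gene and 1 of the pair on I are those with tRNA sequence.

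The words searched for in the sequences were counted at the members and over all peaks and promoters. Within 50 bp of the summit TGATAA was in 2 of the 6 member peaks (nlp-62 and the one shared by nlp-31 and nlp-34) and in 31.4% of all main-list peaks, GAGAGAG in 1 (nlp-31 and nlp-34) and in 8.39%, and CACGTG and ACAATGT in 0, beside 6.88% and 1.87%. In promoters, taken from 250 bp before to 50 bp after the outermost start, TGATAA was in 19 of 102 members (18.6%) and 30.3% of all protein-coding genes. ACAATGT was in 4 members (3.92%), beside 5.68%, CACGTG in 3 (2.94%), beside 5.84%, and GAGAGAG in 8 (7.84%), beside 6.79%. Both strands were read, and a match is a run of letters, not a shown site.

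The genes that make, release and read neuropeptides were described by the same count. The list for precursor processing and dense core vesicles was short, with 21 genes, and no interval was computed for its shares. Of these genes 7 had a peak (33.3%), beside the 19.1% of all genes, and 17 had a ranked entry (81.0%), beside 40.6%. The strongest was at unc-108, which encodes the small GTPase Rab2 of vesicle maturation (signal 269.4, with 187.1 in replicate 1 and 84.7 in replicate 2). Next came egl-21, the carboxypeptidase E that trims peptides (signal 150.5), rund-1, a partner of Rab2 (136.2), and cpd-1, a carboxypeptidase (106.2), which passed the threshold in replicate 2 (−log10 IDR 2.85) but not in replicate 1 (1.87). aex-5, a proprotein convertase of the intestine, had a peak with its summit 21 bp downstream of the start and a signal of 104.0, and both replicates held it above the threshold. pgal-1, an enzyme of peptide amidation, and ida-1, a membrane protein of dense core vesicles, had signals of 78.3 and 64.2. The pgal-1 peak passed the threshold in replicate 1 alone, and the ida-1 peak in neither replicate, with −log10 IDR values of 0.97 and 1.07. egl-3, the main convertase, its chaperone sbt-1 and unc-31, which is needed for release, had ranked entries only. Taken singly, the thresholded list of replicate 1 had a peak at 5 of the 21 genes, beside 18.2% of all protein-coding genes. That of replicate 2 had one at 5 of the 21 genes, beside 13.0%. A main-list peak covered to at least 50% by a peak of each replicate was at 4 of the 21 genes, beside 11.3%.

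Against the same 19.1% of all protein-coding genes, 4 of 107 receptor genes had a peak (3.74%), npr-13 (signal 322.2, in a coding exon of the gene), npr-15 (175.2), npr-23 (138.7, in an intron of vps-4) and sprr-2 (69.8). All but the last overlapped a thresholded peak of both replicates. aex-2, which encodes the receptor of NLP-40, had no ranked entry. Of the neprilysin genes, whose products break down peptides, 3 of 23 had a peak (13.0%, beside 19.1%): nep-26, which shares it with clpp-1 and mdt-22 (187.4), nep-22 (158.9) and nep-17 (128.8). The nep-26 summit was in an intron of clpp-1, 1000 bp upstream of nep-26 and so at the limit of the window. The nep-17 peak passed the threshold in replicate 1 (−log10 IDR 3.99) but not in replicate 2 (1.7). Taken singly, the thresholded list of each replicate had a peak at 2 of the 23. The shares of all protein-coding genes were 18.2% in replicate 1 and 13.0% in replicate 2. The neprilysin list is short, and no interval was computed for it. Insulin-like peptide genes had a peak at 3 of 39 (7.69%, beside 19.1%), ins-7 (438.7), ins-39 (412.4) and ins-12 (147.5), each in both replicates. The ins-7 summit lay in an intron of that gene and was also in the window of ZK1251.3. Of the 11 caenacin genes, which encode antimicrobial peptides related to the nlp-29 group, 0 had a peak, and 0 of the 7 other peptide genes pdf-1, pdf-2, ntc-1, snet-1, capa-1, lury-1 and trh-1 did, again beside 19.1%; both lists are short.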

How the data were processed

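The authors deposited 8 peak lists on ce11, in thresholded and ranked pairs, 1 pair per replicate and 2 pairs from the replicates jointly, per the file headers. No aligner or peak caller is named in the sources used here. The deposited score starts at 830 in each thresholded list. The authors' signal served to describe and rank peaks within a list. The deposited −log10 IDR came from the ranked lists, and 2 corresponds to an IDR of 0.01. Of the passing ranked entries 45 were not in the main list.

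Summits were assigned with Python 3.11.15, pandas 2.3.3 and Ensembl release 115, and the assignment was checked on planted summits. Overlap needed 1 bp. Copies were searched with blastn 2.17.0, and intervals came from scipy 1.17.1. Shares were set beside those of all protein-coding genes and not tested.

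Every member with a window peak is named, with up to 10 members each for peaks beyond the window and for weak ranked entries, nlp-24 to nlp-34, nlp-40, flp-2, the members nearest the window limits and up to 4 genes of each pathway list; pathway genes past 4 (aex-5, pgal-1, ida-1) and those without a peak (egl-3, sbt-1, unc-31, aex-2) were named after their values were seen. The members and lists were chosen with earlier results of these data known. The planned description of precursor proteins was not made, because protein sequences were not used here.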

Additional observations from a re-analysis of the deposited data

How the results depend on the processing

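Against 7 members (1 flp, 6 nlp) in the main list, the 16 alternatives kept the count of all members within 1.5 times in 7 and moved it further in 9. Lists of one replicate gave 3 to 4 members, 0 to 1 flp and 3 nlp. Peaks overlapping both replicates, by 1 bp or over 50% of their length, gave 3 (0 flp, 3 nlp), and the 1000 strongest peaks gave 0 (0 flp, 0 nlp). Windows of 2000 and 5000 bp upstream gave 13 (2 flp, 11 nlp) and 20 (5 flp, 15 nlp), the gene span with 2000 bp on either side 18 (4 flp, 14 nlp), any ranked entry 30 (8 flp, 22 nlp), the nearest start site 2 flp genes, and leaving out summits at tRNA genes, a choice made after seeing the data, 0 flp genes. Fewer peaks or wider windows are part of these alternatives, and the share of all protein-coding genes was higher than that of the members in each. No paired analysis was possible because there was 1 group. Without read depth, a missing peak means only that none was called.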

Other observations

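A ranked entry that passed the threshold but was not in the main list lay at -3838 bp from the start of nlp-46, upstream of it, with a signal of 128.6; no such entry fell in the window of a member. The GC content within 50 bp of the summit ran from 30.7% at nlp-29 to 52.5% at flp-23, with a median of 46.0% over the 6 member peaks and 41.6% over the main list.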
